A study of Mus musculus with 12 samples.

Results

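The 34 genes described here encode the protein folding machinery of the endoplasmic reticulum (ER) and the sensors, degradation factors and translocation channel that go with it. They were taken by gene symbol from a count table of 16353 genes. All 34 were listed, and all 34 passed the filter on low counts that left 12499 genes for testing. The libraries came from CD8 T cells of CBA/J mice that carry the KB5 T cell receptor, a transgenic receptor for an H2b antigen of C57BL/6 mice, and spleen cells were sorted on that receptor and CD8 to 95% purity.

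There were 12 RNA-seq libraries in 4 groups of 3. Inflamed cells came from mice given 10 M (mega) C57BL/6 splenocytes into a vein together with 2 agents into the peritoneum, 0.5 mg of anti-CD154, which blocks the costimulatory CD40 ligand, and 100 µg of lipopolysaccharide (LPS). Tolerized cells came from mice given the splenocytes and anti-CD154 without LPS, and activated cells from mice given the splenocytes alone. Spleens of these 3 groups were taken 12 hours after treatment. Naive cells came from untreated KB5 mice. The series set out to follow gene expression during costimulation blockade. The ages of the mice and any pooling are not given in the sources used here, and the labels call the libraries independent without saying that each is a separate mouse, so p-values measure the spread between these libraries. All 4 groups carried the same transgenic receptor.

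Libraries held 29.3 to 84.5 M reads. The CD8 T cell markers Cd3d, Cd3e, Cd3g, Cd8a, Cd8b1, Cd2, Cd5 and Lck were read in every library, with Cd8a between 858 and 1671 CPM (counts per M reads of the library). The sum of these 8 markers was 3250 to 3516, 2488 to 3125 and 2186 to 3369 CPM in inflamed, tolerized and activated libraries. In naive libraries it was 4421 to 5473 CPM. Transcripts of other spleen cells were present and were also unequal between groups. The summed level of 10 macrophage markers was 9.66 to 409 CPM in inflamed, 38.3 to 134 CPM in tolerized and 57.1 to 735 CPM in activated libraries, against 790 to 2021 CPM in naive libraries. The sum of 6 plasma cell markers, a cell type rich in ER proteins, was 34.5 to 50.9, 32.9 to 50.1 and 38.9 to 44.6 CPM in inflamed, tolerized and activated libraries, and 181 to 228 CPM in naive libraries. Of these, Igj had the most reads over all libraries and the receptor gene Tnfrsf17 was at 0 in 3 libraries. The sum of 9 B cell markers was 189 to 430, 222 to 399 and 253 to 406 CPM in inflamed, tolerized and activated libraries, against 931 to 1376 CPM in naive libraries. Neutrophil markers, with Elane at 0 in most libraries, summed to 186 and 83.4 CPM in inflamed libraries 1 and 2, against 0.986 to 14.8 CPM in the other 10. The part of these cells in the values below was not tested, except where a result is given without the libraries concerned. In bulk RNA, fewer cells of a type and less RNA per cell cannot be told apart.

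**Figure D1:**
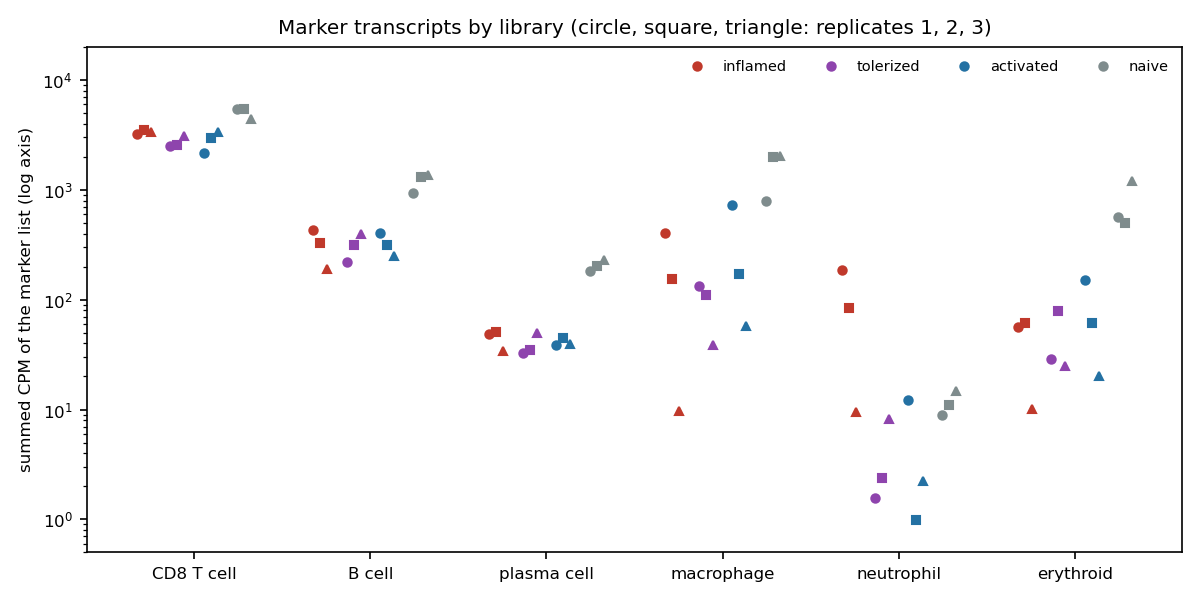
Summed CPM of marker lists (y axis, log scale) for CD8 T cells and 5 other cell types (x axis) in each library of the inflamed, tolerized, activated and naive groups; circle, square and triangle are replicates 1, 2 and 3. CD8 T cell, B cell, plasma cell and erythroid sums are highest in the naive libraries, and inflamed libraries 1 and 2 carry 186 and 83.4 CPM of neutrophil markers.

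Secreted and membrane proteins enter the ER through the Sec61 channel and are folded there by chaperones such as BiP, the product of Hspa5, and by protein disulfide isomerases. When unfolded protein builds up, 3 sensors start the unfolded protein response: IRE1 alpha, encoded by Ern1, splices the Xbp1 transcript so that it makes an active transcription factor; PERK, encoded by Eif2ak3, slows translation; and ATF6 is cut in the Golgi to release a transcription factor. XBP1 and ATF6 then raise the genes for chaperones and for ER-associated degradation, which returns misfolded proteins to the cytosol. In CD8 T cells this response is known to accompany the growth and secretion of effector cells. Counts per gene do not separate spliced from unspliced Xbp1 transcripts and do not see the phosphorylation of PERK or the cleavage of ATF6.

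Many genes of this response are known to carry the ER stress response element (ERSE) before their start site, a CCAAT box and a CCACG box set 9 bases apart, which was first described in the human promoters of genes including Hspa5, Hsp90b1 and Calr. RefSeq promoters of GRCm38.p6, from 250 bases before to 50 bases after the start site, were found for 28 of the 34 members, matched by gene identifier. Hyou1, Manf, Atf6, Derl1, Sec61a1 and Ssr2 had no entry. The element, searched on either strand as CCAAT, any 9 bases and CCACG, was present in 10 of the 28, against 37 of 27025 genes (0.137%). The shorter ERSE-II, searched on either strand as ATTGG, any 1 base and CCACG, was present in Dnajb11 and Herpud1, against 0.0444% of genes. The sequences below come from members with the largest rises in activated cells, from members that were lower and from one that did not pass the test, and their capitals mark the fixed letters of the element, which read CGTGG and ATTGG where the element lies on the other strand.
Hspa5 (chr2:34771940-34772089, plus strand, ERSE, higher): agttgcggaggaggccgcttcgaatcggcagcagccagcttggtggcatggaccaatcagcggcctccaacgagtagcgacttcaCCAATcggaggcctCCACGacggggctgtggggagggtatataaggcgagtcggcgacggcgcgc
Canx (chr11:50325780-50325838, minus strand, ERSE, higher): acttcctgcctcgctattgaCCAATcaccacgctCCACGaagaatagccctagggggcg
Pdia6 (chr12:17266471-17266529, plus strand, ERSE, higher): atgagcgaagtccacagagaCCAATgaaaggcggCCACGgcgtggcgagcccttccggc
Creld2 (chr15:88819500-88819558, plus strand, ERSE, higher): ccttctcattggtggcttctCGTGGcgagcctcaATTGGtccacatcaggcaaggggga
Ero1lb (chr13:12565662-12565720, plus strand, ERSE, lower): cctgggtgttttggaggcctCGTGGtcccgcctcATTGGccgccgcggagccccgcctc
Dnajc3 (chr14:118937807-118937865, plus strand, ERSE, lower): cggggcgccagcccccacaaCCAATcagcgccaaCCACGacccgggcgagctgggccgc
Herpud1 (chr8:94386357-94386407, plus strand, ERSE-II, lower): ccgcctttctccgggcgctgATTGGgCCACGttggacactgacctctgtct
Syvn1 (chr19:6046512-6046570, plus strand, ERSE, not called): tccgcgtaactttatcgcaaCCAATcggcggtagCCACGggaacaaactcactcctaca

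The element was present in members of either direction. Among the 16 members with a promoter entry that rose in activated cells it was present in 6, which were Hspa5, Hsp90b1, Canx, Calr, Creld2 and Pdia6. Among the 7 that were lower it was present in 3, which were Ero1lb, Dnajc3 and Derl3, and among the 5 that were not called it was present in Syvn1. The core of the UPRE, an XBP1 binding sequence, searched on either strand as TGACGTGG, was in 0 of the 28 promoters and in 0.714% of all genes. The letters CCACG alone, which are part of ERSE and ERSE-II and, read on the other strand, of the UPRE core, were in 24 of 28 member promoters and in 35.5% of all genes. A match describes these letters in this window and does not show that a factor binds there.

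**Figure D2:**
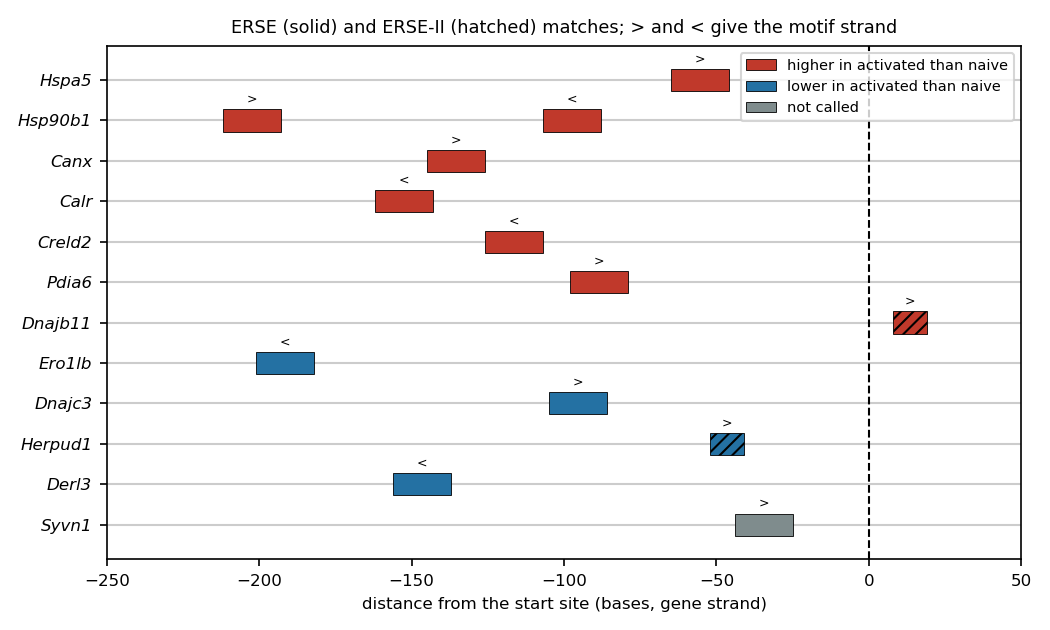
Position of each ERSE (solid) and ERSE-II (hatched) match in the promoters of 12 members (rows), as distance in bases from the start site on the gene's strand (x axis), coloured by the call in activated against naive cells. Members that were higher, lower and not called all hold a match, and Hsp90b1 holds 2.

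Most of the folding machinery was higher in the 3 antigen-exposed groups than in naive cells. In activated against naive cells, 28 of the 34 members were called at an adjusted p under 0.05 (limma-trend), against 70.7% of all genes tested; 21 were higher, where 35.3% of all genes were, and 7 were lower, where again 35.3% of all genes were. In tolerized against naive cells 21 were higher and 7 lower (73.3% of all genes called, 37.4% higher and 35.9% lower), and in inflamed against naive cells 21 were higher and 6 lower (72.4%, 36.9% and 35.5%). The share of members called was not far from that of all genes, and the share of higher members stood above it. Libraries that did not overlap the naive ones were common among the 12499 genes. In inflamed cells all libraries lay above the naive ones for 4936 genes and below them for 4829. In tolerized cells these counts were 4956 and 4825, and in activated cells 4763 and 4691. For the members they were 22 and 7, 21 and 7, and 21 and 7. The median log2 difference of the members was 0.95 in inflamed, 1.02 in tolerized and 0.90 in activated against naive cells, beside −0.01, −0.01 and −0.04 over all tested genes. These 3 comparisons share the naive libraries. With library size as the only scaling the median of all genes was −0.27, −0.25 and −0.26. The members then split into 20 higher and 9 lower, 19 and 12, and 19 and 11. Of all genes 74.8%, 75.6% and 73.5% were then called, and 38.6%, 39.6% and 39.1% of those calls were higher. Upper-quartile scaling gave 20 and 8, 19 and 11, and 19 and 9. Its median of all genes was −0.172, −0.188 and −0.199. It called 73.9%, 74.8% and 72.7% of all genes, with 42.5%, 41.8% and 41.1% of those calls higher.

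**Figure D3:**
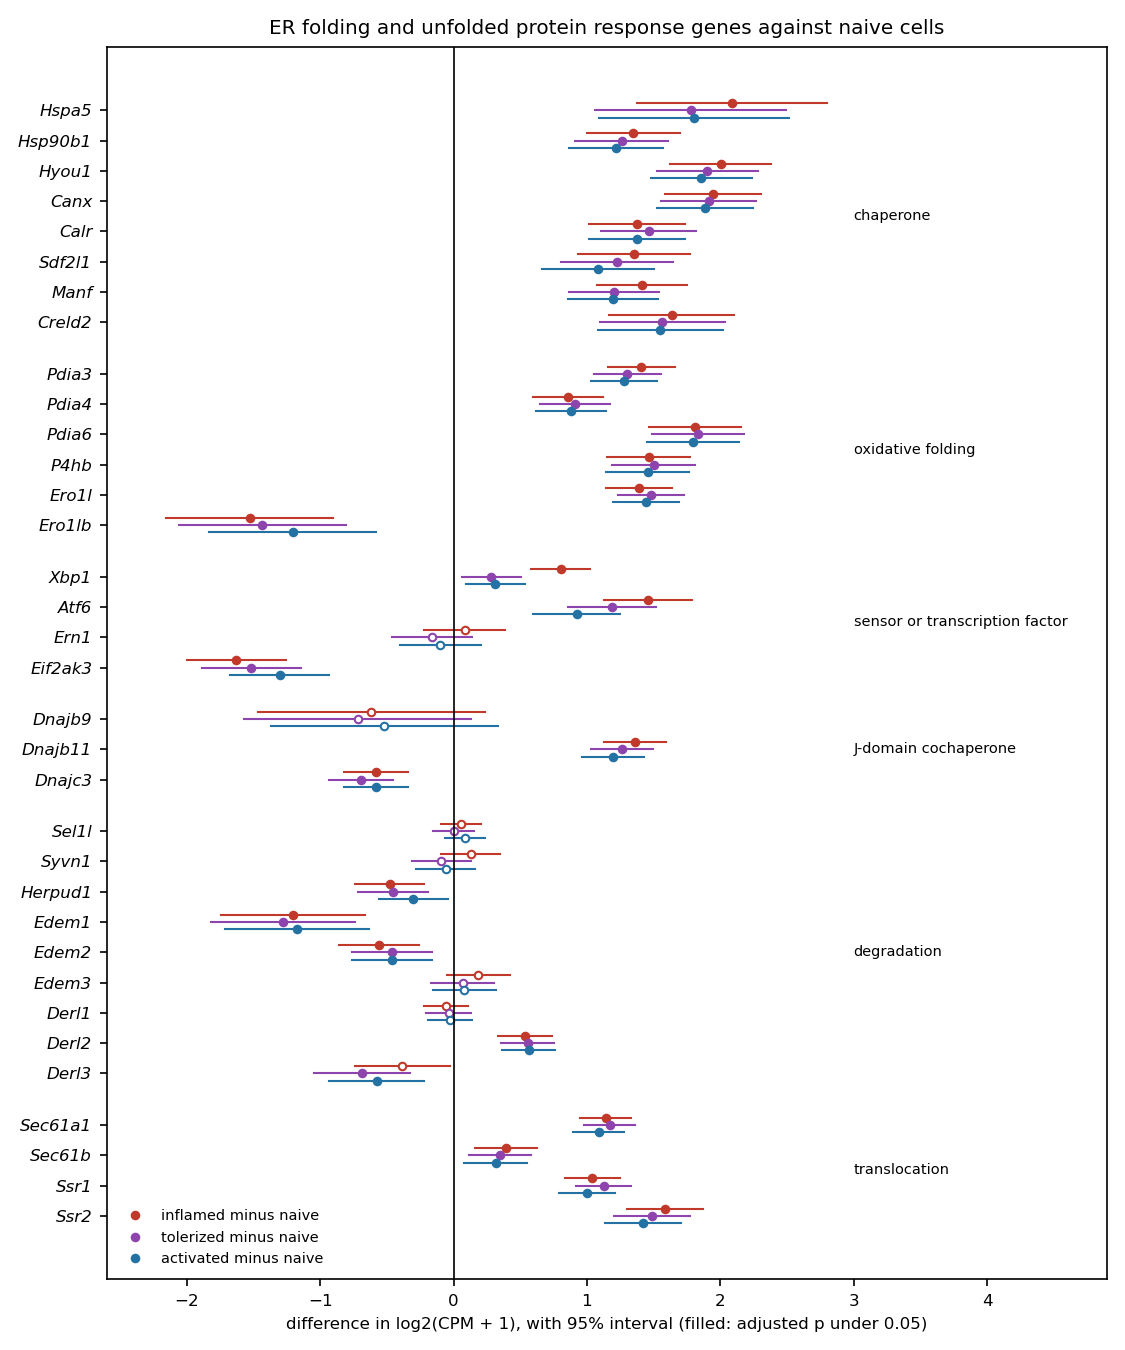
Difference in log2(CPM + 1) from naive cells (x axis, with 95% interval) for the 34 members (rows, grouped by role) in inflamed, tolerized and activated cells; filled points have an adjusted p under 0.05. Chaperones and translocation genes lie to the right of 0, degradation genes scatter around it, and Atf6 (1.46, 1.19 and 0.92) and Xbp1 (0.80, 0.28 and 0.31) show the widest gaps between inflamed and activated cells; the tolerized difference of Xbp1 turns to −0.02 when libraries are scaled by size alone.

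All 8 chaperones and their helpers were higher in all 3 antigen-exposed groups. BiP, the Hsp70 of the ER lumen (Hspa5, chr2:34772090-34776529), had 1852, 1587 and 1802 CPM in inflamed, 1647, 1363 and 1240 CPM in tolerized and 1884, 1313 and 1184 CPM in activated libraries, against 258, 357 and 749 CPM in naive libraries. Every antigen-exposed library lay above every naive one, but naive library 3 stood well above the other naive libraries. The log2 difference from naive cells was 2.09 in inflamed, 1.78 in tolerized and 1.80 in activated cells (SE 0.32 each; adjusted p = 0.000187, 0.000563 and 0.000597), and without naive library 3 it was 2.52, 2.21 and 2.24.

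The lectin chaperone calnexin (Canx, chr11:50293957-50325673), which holds newly made glycoproteins, had 1093, 857 and 979 CPM in inflamed, 1165, 906 and 810.4 CPM in tolerized and 1152, 867 and 807 CPM in activated libraries, against 247, 269 and 239.7 CPM in naive libraries. Hyou1 (chr9:44379490-44392369), a large Hsp70 relative that recharges BiP, had 513, 401 and 454 CPM in inflamed, 522, 418 and 347 CPM in tolerized and 512, 399.9 and 338 CPM in activated libraries, against 109.8, 118 and 109.6 CPM in naive libraries. The lowest antigen-exposed library was far above the highest naive library for both genes, and the naive libraries lay close together. Canx differed by 1.94, 1.91 and 1.88 on the log2 scale in inflamed, tolerized and activated cells (SE 0.16) and Hyou1 by 2.003, 1.90 and 1.86 (SE 0.17), with the largest adjusted p at 4.67e-06. Creld2 (chr15:88819646-88826681), a small secreted protein of the stress response, had 101, 67.0 and 79.0 CPM in inflamed, 92.8, 74.2 and 67.0 CPM in tolerized and 98.6, 80.5 and 56.3 CPM in activated libraries, against 24.5, 28.9 and 23.3 CPM in naive libraries. Its log2 difference was 1.64, 1.56 and 1.55 (SE 0.21).

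The other 4 chaperone members moved less. Calreticulin (Calr), the soluble partner of calnexin, averaged 991 ± 149, 1057 ± 189 and 996 ± 179 CPM in inflamed, tolerized and activated cells, against 379 ± 22.7 CPM in naive cells (SD, n = 3 each). GRP94 (Hsp90b1), the Hsp90 of the ER, was higher by 1.35, 1.26 and 1.22 on the log2 scale in inflamed, tolerized and activated cells. The growth factor and BiP cofactor Manf was higher by 1.41, 1.20 and 1.20, and Sdf2l1, a partner of ER J-domain proteins, by 1.35, 1.23 and 1.081. The 8 chaperones together summed to 6119, 4873 and 5498 CPM in inflamed, 6036, 4824 and 4437 CPM in tolerized and 6210, 4669 and 4191 CPM in activated libraries, against 1422, 1708 and 1992 CPM in naive libraries. In each antigen-exposed group the library with replicate number 1 had the highest sum, and it was also the richest of its group in macrophage markers, at 409, 134 and 735 CPM in the inflamed, tolerized and activated groups; their part in the chaperone sum was not tested.

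Of the 6 members of oxidative folding, which form disulfide bonds, 5 were higher and 1 was lower in all 3 comparisons with naive cells. Pdia6 (chr12:17266589-17284785), a disulfide isomerase that works with BiP, had 266, 222 and 247 CPM in inflamed, 270.1, 256 and 220.3 CPM in tolerized and 304, 244 and 191 CPM in activated libraries, against 63.1, 77.8 and 66.6 CPM in naive libraries. Antigen-exposed libraries did not overlap the naive ones, and the log2 difference was 1.81, 1.83 and 1.80 (SE 0.16), with all 3 adjusted p at or under 3e-06. The isomerases Pdia3, which works with calnexin and calreticulin, P4hb, the founding member of the family, and Pdia4 were higher by 1.41, 1.46 and 0.86 in inflamed cells, by 1.30, 1.5 and 0.91 in tolerized cells and by 1.28, 1.46 and 0.88 in activated cells.

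The 2 oxidases that recharge these isomerases went in opposite directions. Ero1l, the widely expressed oxidase now named Ero1a, averaged 119 ± 15.5, 127 ± 12.9 and 124 ± 6.12 CPM in inflamed, tolerized and activated cells, against 44.9 ± 4.11 CPM in naive cells (SD, n = 3 each), and was higher by 1.39, 1.48 and 1.44 on the log2 scale. Ero1lb (chr13:12565818-12609533), now named Ero1b and best known from pancreatic cells, had 9.66, 13.6 and 9.09 CPM in inflamed, 8.24, 11.6 and 15.4 CPM in tolerized and 9.14, 12.7 and 21.2 CPM in activated libraries, against 31.9, 32.4 and 33.4 CPM in naive libraries. All 9 antigen-exposed libraries were below the naive ones, which differed little from one another. Its log2 difference was −1.53, −1.43 and −1.20 (SE 0.28; adjusted p = 0.000628, 0.000982 and 0.00316).

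The 3 sensors and Xbp1 did not move together. Atf6 (chr1:170704457-170868585) had 43.5, 46.7 and 61.0 CPM in inflamed, 45.0, 41.5 and 37.6 CPM in tolerized and 36.8, 32.0 and 33.6 CPM in activated libraries, against 14.6, 18.6 and 19.8 CPM in naive libraries, and it was higher by 1.46, 1.19 and 0.92 on the log2 scale (SE 0.15). Eif2ak3 (chr6:70844484-70905241) had 12.4, 18.01 and 14.4 CPM in inflamed, 16.3, 15.9 and 16.0 CPM in tolerized and 14.6, 19.1 and 23.5 CPM in activated libraries, against 47.0, 45.8 and 50.5 CPM in naive libraries. It was the member with the largest fall in all 3 comparisons, at −1.63, −1.52 and −1.30 (SE 0.17; adjusted p = 9.93e-06, 1.71e-05 and 6.13e-05). Of its annotated exon bases, 8.05% overlap the locus Gm43292, which has no assigned class, on the opposite strand, and whether the counting used strand is not given in the sources used here.

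Ern1 (chr11:106397620-106487796) had 11.04, 10.7 and 11.2 CPM in inflamed, 9.76, 10.2 and 7.51 CPM in tolerized and 8.46, 10.1 and 10.2 CPM in activated libraries, against 10.6, 10.6 and 9.79 CPM in naive libraries. Tolerized and activated libraries overlapped the naive ones and inflamed libraries lay just above them, and no difference passed the test (log2 0.08, −0.16 and −0.10, SE 0.14). The 95% intervals ran from −0.22 to 0.39, from −0.47 to 0.14 and from −0.40 to 0.20. With scaling by library size alone Ern1 was called lower in tolerized and activated cells (−0.45 and −0.35; adjusted p = 0.0144 and 0.0435).

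Xbp1 (chr11:5520641-5525993) had 87.5, 88.6 and 83.3 CPM in inflamed, 55.5, 60.6 and 64.1 CPM in tolerized and 67.4, 61.8 and 55.0 CPM in activated libraries, against 45.3, 54.7 and 47.7 CPM in naive libraries. The inflamed libraries stood above all others, and the tolerized and activated libraries lay just above the naive ones. The log2 difference from naive cells was 0.80 in inflamed cells (SE 0.10, adjusted p = 3.74e-05). In tolerized and activated cells it was 0.28 and 0.31 (adjusted p = 0.0238 and 0.0159), and with scaling by library size alone these 2 values were −0.02 and 0.04 and neither passed the test. The call in activated cells was also lost without naive library 1 (adjusted p = 0.0643), and that in tolerized cells without tolerized library 2 or 3 or naive library 1 or 3 (adjusted p = 0.0614 to 0.0916).

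**Figure D4:**
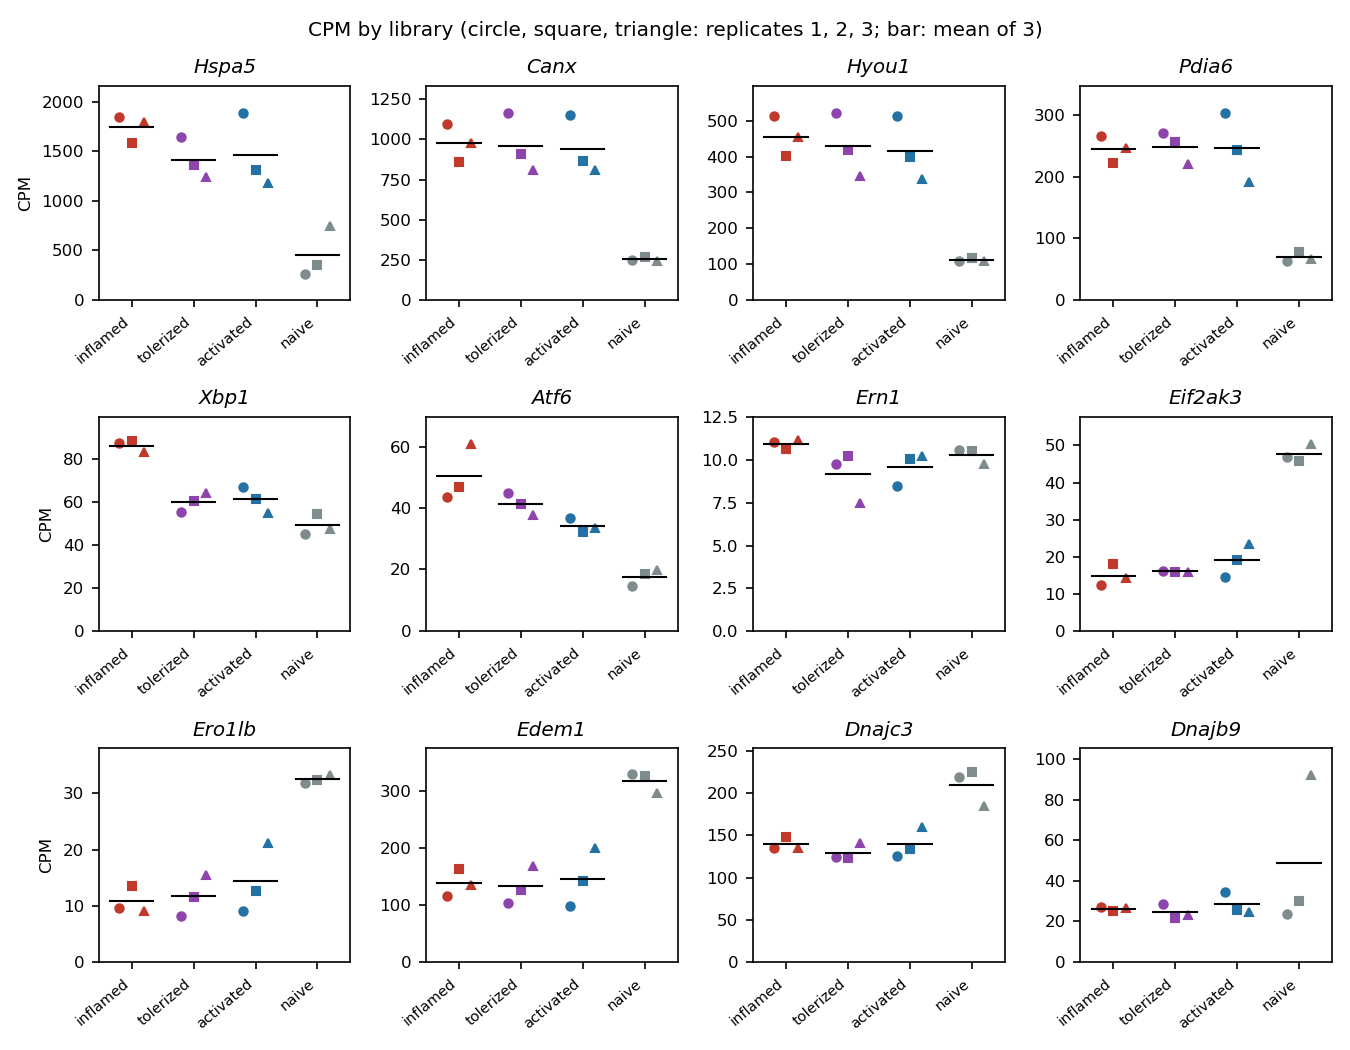
CPM (y axis, from 0) in each library of 12 members (panels) in inflamed, tolerized, activated and naive cells; circle, square and triangle are replicates 1, 2 and 3 and the bar is the mean of 3. Hspa5 and Dnajb9 show naive library 3 apart from the other naive libraries at 749 and 92.3 CPM, and Xbp1 is highest in the 3 inflamed libraries.

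The 3 J-domain proteins, which bring BiP to its substrates, went different ways. Dnajb11 (ERdj3), a soluble partner of BiP, averaged 146 ± 9.12, 137 ± 11.3 and 131 ± 15.9 CPM in inflamed, tolerized and activated cells, against 56.4 ± 4.86 CPM in naive cells (SD, n = 3 each), and was higher by 1.36, 1.27 and 1.20 on the log2 scale. Dnajc3 (p58IPK, chr14:118937932-118981702) had 135, 149 and 135 CPM in inflamed, 124, 124 and 141 CPM in tolerized and 126, 134 and 161 CPM in activated libraries, against 219.5, 226 and 185 CPM in naive libraries. It was lower by −0.58, −0.69 and −0.58 (SE 0.11; adjusted p = 0.000669, 0.000214 and 0.000783). Dnajb9 (ERdj4, chr12:44205897-44210068), a classical target of XBP1, had 27.1, 25.0 and 26.5 CPM in inflamed, 28.4, 21.7 and 23.3 CPM in tolerized and 34.6, 25.7 and 24.8 CPM in activated libraries, against 23.8, 30.2 and 92.3 CPM in naive libraries. Naive library 3 alone lay outside the range of the other libraries, and no difference passed the test (log2 −0.62, −0.72 and −0.52, SE 0.39). Without naive library 3 the 3 values were −0.03, −0.14 and 0.06, and without naive library 1 they were −0.99, −1.09 and −0.89, of which the first 2 passed the test (adjusted p = 0.0349 and 0.023). In the same library Ppp1r15a, the stress-induced phosphatase subunit that reverses the action of PERK, was at 402 CPM, against 32.2 and 84.4 CPM in naive libraries 1 and 2. Of other stress genes, Atf4 was also highest there among naive libraries, at 215 CPM against 107 and 137 CPM. Ddit3 (21.3 against 20.8 and 19.1 CPM) and Trib3 (3.54 against 3.61 and 4.51 CPM) did not stand apart. The sum of erythroid markers was 1194 CPM in naive library 3, against 568 and 497 CPM. What set this library apart was not tested.

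The degradation members were mixed. Of these 9 members, 1 was higher in all 3 comparisons with naive cells, 4 were lower in tolerized and activated cells and 3 in inflamed cells, and the rest were not called. Edem1 (chr6:108824045-108859356), a lectin that picks out misfolded glycoproteins, had 117, 164 and 135 CPM in inflamed, 104, 126 and 169 CPM in tolerized and 97.6, 142 and 201 CPM in activated libraries, against 330.2, 327 and 297 CPM in naive libraries. Antigen-exposed libraries did not overlap the naive ones, and the log2 difference was −1.21, −1.28 and −1.17 (SE 0.24, adjusted p = 0.00114, 0.000781 and 0.00155). In each antigen-exposed group the library with the highest chaperone sum had the lowest Edem1. Its relative Edem2 was lower by −0.56, −0.46 and −0.46 and Herpud1, which organises the degradation complex, by −0.48, −0.46 and −0.30. The Edem2 call in activated cells was lost without activated library 1 (adjusted p = 0.0547). The Herpud1 call in activated cells was lost when activated library 2 or 3, naive library 1 or 2, tolerized library 1 or inflamed library 1 was left out (adjusted p = 0.0545 to 0.136).

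Derl2, a channel component of the degradation machinery, was the member that rose, by 0.53, 0.56 and 0.56 (SE 0.09). Derl1 averaged 104 ± 4.71, 106 ± 7.23 and 106 ± 2.32 CPM in inflamed, tolerized and activated cells, against 109 ± 6.45 CPM in naive cells (SD, n = 3 each), and was not called. The ubiquitin ligase Syvn1 (HRD1), its partner Sel1l and the mannosidase-like Edem3 were likewise not called, with log2 differences between −0.09 and 0.18. Edem3 in inflamed cells passed the test without inflamed library 1 (log2 0.28, adjusted p = 0.0429). With scaling by library size alone Sel1l and Derl1 were called lower in inflamed (−0.27 and −0.39), tolerized (−0.31 and −0.35) and activated cells (−0.19 and −0.30), and Syvn1 in tolerized and activated cells (−0.40 and −0.33). Derl3, known from secretory cells such as plasma cells, had only 420 reads over all 12 libraries, at 0.887, 0.545 and 0.820 CPM in inflamed, 0.152, 0.424 and 0.728 CPM in tolerized and 0.684, 0.453 and 0.450 CPM in activated libraries, against 1.11, 1.15 and 1.60 CPM in naive libraries. It was called lower in tolerized and activated cells (adjusted p = 0.00298 and 0.00838) and not in inflamed cells (0.0525). There leaving out tolerized library 1 or 3 gave a call (0.034 and 0.0324). So did each of the 3 other scalings, no filter, a pseudocount of 5 and the fit of 2 groups (0.00927 to 0.0494). The plasma cell, B cell and macrophage marker sums given above were also highest in naive libraries, and their part in the Derl3 values was not tested.

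All 4 translocation members were higher in all 3 comparisons. Sec61a1, the pore of the channel, averaged 326 ± 12.8, 333 ± 20.3 and 315 ± 30.5 CPM in inflamed, tolerized and activated cells, against 147 ± 8.90 CPM in naive cells (SD, n = 3 each), a log2 difference of 1.14, 1.17 and 1.09. The subunits Ssr1 and Ssr2 of the translocon-associated complex were higher by 1.04 and 1.58 in inflamed, 1.12 and 1.49 in tolerized and 1.001 and 1.42 in activated cells. Sec61b, a small subunit of the channel, was higher by 0.39, 0.35 and 0.31 in the main scaling, and by 0.07, 0.04 and 0.04 with scaling by library size alone, where it was not called. Its call in activated cells was also lost without activated library 2 or naive library 3 (adjusted p = 0.0868 and 0.0672). Of the annotated exon bases of Ssr2 and Sec61a1, 12.8% and 8.16% overlap a pseudogene and an antisense gene on the opposite strand. For the chaperone Hsp90b1, 10.3% overlap a pseudogene on the opposite strand, and 2.08% and 3.3% overlap loci on the same strand. Apart from these and Eif2ak3, no single overlap of a member exceeded 4.71%, in Manf.

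Levels can be compared between genes once divided by exon length. Per kb of exon, Hspa5 stood at 668, 542 and 558 CPM in inflamed, tolerized and activated cells and at 174 CPM in naive cells. Calr was the highest member in naive cells at 195 CPM per kb, and it stood at 510.2, 544 and 513 CPM per kb in inflamed, tolerized and activated cells. Hsp90b1 and Pdia3 followed in naive cells, at 149 and 115 CPM per kb. Of the sensors, Ern1 and Atf6 were among the lowest members in naive cells, at 2.59 and 2.37 CPM per kb, and Derl3 was the lowest at 0.962. Eif2ak3 stood higher, at 10.6 CPM per kb. In activated cells Eif2ak3 and Atf6 stood close together, at 4.24 and 4.58 CPM per kb.

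**Figure D5:**
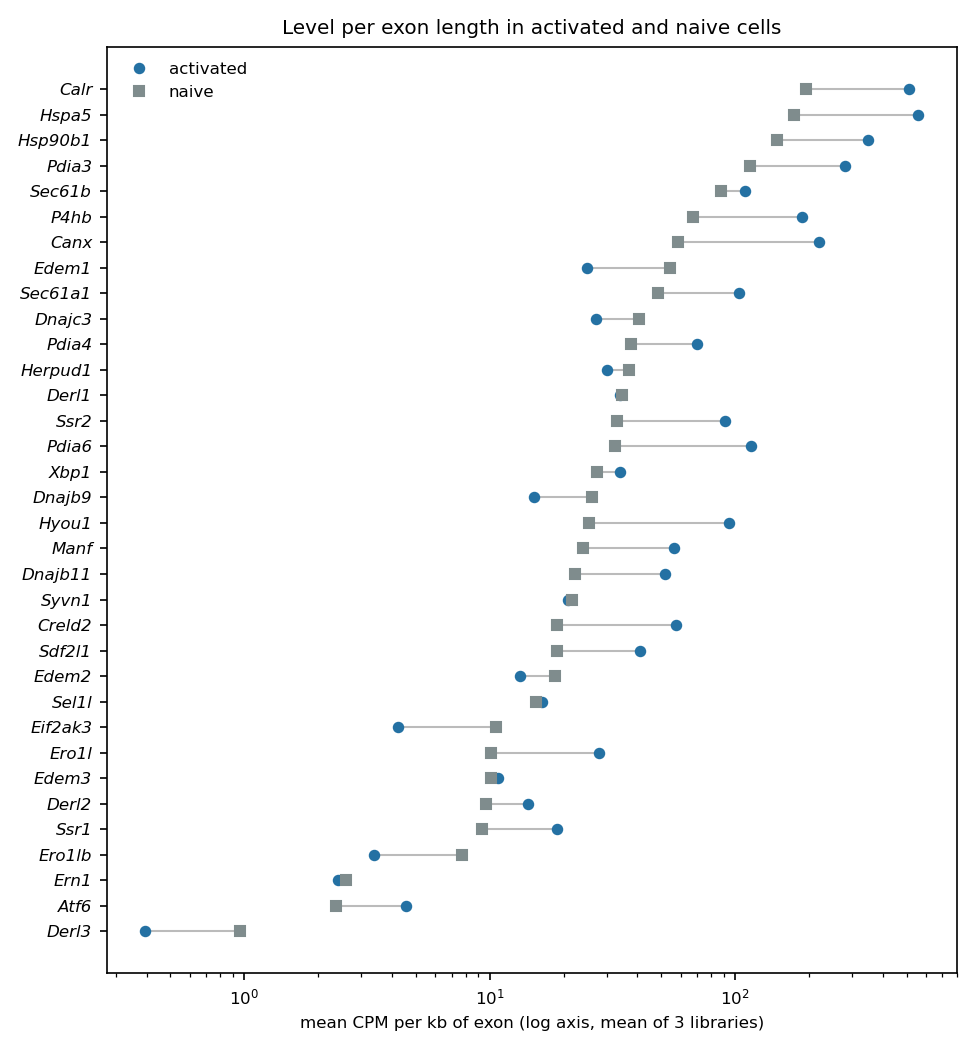
Mean level in CPM per kb of exon (x axis, log scale, mean of 3 libraries) of the 34 members (rows, in order of the naive level) in activated and naive cells. The chaperone Calr leads in naive cells at 195 CPM per kb, Derl3 is lowest at 0.962, and the levels of Eif2ak3, Ero1lb and Edem1 lie to the left of their naive levels.

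The antigen-exposed groups differed little in this machinery. In tolerized against activated cells no member was called, and 0% of all genes were (0 of 12499; 531 genes, 4.25%, at an unadjusted p under 0.05, among them 0 members). Without tolerized library 1, 57 genes were called (0.456%), and 0 members. Log2 differences of the members ran from −0.23 to 0.27, the median half-width of their 95% intervals was 0.30, and for 33 of 34 members the interval lay within a 2-fold change either way. Atf6 had the largest value: all tolerized libraries lay above all activated ones (log2 0.27, SE 0.15, adjusted p = 1), where 6.66% of all genes did not overlap. Hspa5 averaged 1417 ± 209 CPM in tolerized cells and 1460 ± 373 CPM in activated ones (SD, n = 3 each), and the libraries overlapped.

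Xbp1 was the 1 member called in inflamed cells against either of the other antigen-exposed groups. This is 2.94% of the 34 members in each comparison, near the share of all genes, so the count does not set the members apart. It was higher by 0.52 against tolerized cells (SE 0.10, adjusted p = 0.0195), where 2.78% of all genes were called, 1.66% higher and 1.12% lower, and by 0.49 against activated cells (SE 0.10, adjusted p = 0.0304), where 1.92% were called, 1.54% higher and 0.384% lower. In both comparisons all 3 inflamed libraries lay above all 3 others, which 18.3% and 13.2% of all genes did in one direction or the other. The counts over all genes depended on single libraries. Against tolerized cells 540 genes were called without tolerized library 1 (4.32%, with 204 of them higher, fewer than were lower), and 156, 185 and 178 without tolerized library 2, inflamed library 1 and inflamed library 2. Against activated cells 107, 132 and 124 were called without activated library 2, inflamed library 1 and inflamed library 2, in place of 240. Inflamed libraries and activated libraries of the same replicate number deviated together, and with the replicate number as a block the adjusted p against activated cells was 0.0535, or 0.17 with these 2 groups alone in the fit. Against tolerized cells the block gave a call in the fit of all libraries and none with the 2 groups alone (adjusted p = 0.208).

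The Xbp1 difference kept its size and often lost its call when libraries were left out. Against activated cells the call was lost without activated library 2 or 3, tolerized library 2 or inflamed library 1 or 2 (adjusted p = 0.0581 to 0.14), and against tolerized cells without tolerized library 2 or inflamed library 1 or 2 (0.0781 to 0.0818). Without inflamed libraries 1 and 2, those rich in neutrophil transcripts, inflamed library 3 was alone in its group, which then had no spread. The log2 difference was then 0.46 against tolerized and 0.42 against activated cells. Inflamed library 3, with 9.44 CPM of neutrophil markers and 9.66 CPM of macrophage markers, had 83.3 CPM of Xbp1. Without activated library 1 and inflamed library 1, the richest in macrophage transcripts of their groups, the log2 difference was 0.52 and 0.55 (adjusted p = 0.0603 and 0.0946).

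Atf6 lay in the same direction without a call. It was higher in inflamed than in activated cells by 0.53 (SE 0.15, adjusted p = 0.135), with no overlap between libraries, and differed from tolerized cells by 0.27 (adjusted p = 0.473), with overlap. The 95% interval of the first difference ran from 0.21 to 0.86. Hspa5 averaged 1747 ± 141 CPM in inflamed cells, against 1417 ± 209 CPM in tolerized cells and 1460 ± 373 CPM in activated ones (SD, n = 3 each), and the libraries overlapped. Its log2 difference was 0.31 and 0.29 (SE 0.32 each).

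Genes that work next to the members were counted in 6 further lists. Their counts stand beside 36.9%, 37.4% and 35.3% of all tested genes called higher in inflamed, tolerized and activated against naive cells, and 35.5%, 35.9% and 35.3% called lower. Of 20 signal recognition and translocation genes, against naive cells 15, 14 and 16 were higher in inflamed, tolerized and activated cells and 2, 1 and 1 were lower. Srp54a, the subunit that reads signal sequences, and Spcs3, a subunit of signal peptidase, were higher in activated cells by 1.05 (SE 0.08) and 1.16 (SE 0.10). Of 21 genes for N-glycosylation and glycoprotein quality control, 15 were higher in each comparison, and 0, 1 and 0 were lower. Dpagt1, which starts the lipid-linked sugar chain, averaged 44.5 ± 6.13, 48.4 ± 7.75 and 45.8 ± 7.67 CPM in inflamed, tolerized and activated cells, against 11.2 ± 0.54 CPM in naive cells (SD, n = 3 each), and the cargo receptor Lman1 was higher in activated cells by 1.41 (SE 0.12). Of 19 tested COPII transport genes, 12 were higher in each comparison and 2, 3 and 2 were lower, with Sec23b and Sec23ip higher in activated cells by 1.25 and 1.28.

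The lists of stress, degradation and oxidoreductase genes were mixed, and their shares of higher genes were near those of all tested genes. Of 20 further degradation genes, 8 were higher in each comparison and 5, 7 and 6 were lower in inflamed, tolerized and activated cells. The segregase Vcp, which pulls proteins out of the membrane, averaged 997 ± 45.6, 1027 ± 150 and 963 ± 182 CPM in inflamed, tolerized and activated cells, against 230 ± 9.38 CPM in naive cells (SD, n = 3 each), and its cofactor Nploc4 was higher in activated cells by 1.42 (SE 0.14). Of 17 other sensors and stress transcription factors, 7 were higher in each comparison and 6, 9 and 8 were lower. The cell death effector Bax was higher by 2.12, 1.66 and 1.65 in inflamed, tolerized and activated cells, and Mbtps1, the protease that cuts ATF6, was lower by −0.77, −0.68 and −0.60. Of 19 other thiol oxidoreductases and cochaperones, 7, 6 and 7 were higher and 3, 1 and 1 were lower, with Txndc5 and Erp44 higher in activated cells by 0.73 and 0.53. Medians over these lists in activated cells were 0.69 for translocation, 0.71 for glycosylation, 0.65 for COPII, −0.02 for degradation, −0.49 for stress factors and 0.03 for oxidoreductases.

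Of these neighbouring genes, Bbc3, the cell death factor PUMA, differed between inflamed and tolerized cells. It had 2.90, 3.72 and 2.81 CPM in inflamed libraries and 1.22, 1.07 and 1.11 CPM in tolerized libraries, a log2 difference of 0.95 (SE 0.19, adjusted p = 0.021). All 3 inflamed libraries lay above all 3 tolerized ones.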

How the data were processed

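Per the labels' protocols, messenger RNA of sorted T cells was sequenced on a HiSeq 2000, although the extraction text speaks of cultured fibroblasts. Per the submitters' processing notes, TopHat2, bedtools, DESeq, mm10 and GRCm38 were used, with no versions or roles. The authors deposited read counts, 1 per gene and library, whole and not normalized, with commas inside larger numbers; the commas kept the values in another unit class, so no count model was run. Values from 1 to 20 were even in 55.6% to 64.4% of cases, so pairs may count as 2 reads. From the deposited counts, CPM was computed with trimmed mean of M factors (0.897 to 1.22; 30% of M and 5% of A trimmed). Genes with 0.258 CPM (10 reads at the median library) in 3 libraries and 15 reads in all were tested on log2(CPM + 1) with limma-trend from limma 3.58.1 in R 4.3.3, which understates changes of low genes, with all 12 libraries in 1 fit and Benjamini-Hochberg adjustment over 12499 genes in each of 6 comparisons. Intervals are 95%. On simulated reads for activated against naive cells, 10% of 1.5-fold, 48% of 2-fold and 100% of 4-fold changes were recovered (50 genes each). In those reads 12195 genes were left unchanged and all genes had the same fixed dispersion. In the data 70.7% of genes were called, so these shares do not give the recovery of the test used here.

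The members and lists were chosen with earlier results of these data known. Every member is named; values per library are given for the sensors, Xbp1, Hspa5, the 5 largest rises and falls in activated against naive cells at 10 CPM or more, and members called among antigen-exposed groups, and of each further list the 2 genes with the smallest adjusted p in activated cells. Derl3, Bbc3, Ppp1r15a and other values outside this rule were picked after values were seen. One result is not reported here. Same-number libraries correlated over 0.1 in every pair for tolerized with activated (0.19 to 0.60) and inflamed with activated cells (0.146 to 0.636), not in the other 4 comparisons; what a number marks is not in the labels. Alternatives were limma-voom, scaling by median of ratios, upper quartile or library size, no filter, a pseudocount of 0.1 or 5, fits of 2 groups, a replicate block, and each library left out.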

Additional observations from a re-analysis of the deposited data

How the results depend on the processing

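Against naive cells, 25 of 27 member calls in inflamed, 25 of 28 in tolerized and 24 of 28 in activated cells were kept under all 24 alternatives; those lost under at least one were Herpud1 and Sec61b in inflamed, Xbp1, Edem2 and Sec61b in tolerized, and Xbp1, Herpud1, Edem2 and Sec61b in activated cells. In the main scaling Sel1l was not called, at 0.056, 0.0007 and 0.084 in inflamed, tolerized and activated cells. Scaling by library size alone called it lower (−0.27, −0.31 and −0.19), and upper-quartile scaling did so in tolerized cells (−0.22). The Xbp1 difference in tolerized cells changed sign with library size alone and was not called (−0.021). The number of members called in inflamed against activated cells was 1, and 0 with library size alone, with only the groups compared, with the replicate block, with the replicate block and only the groups compared, and in both leave-outs chosen after seeing the data (activated 1 with inflamed 1, and inflamed 1 with 2). In inflamed against tolerized cells it was 1, and 0 with the replicate block and only the groups compared and in both added leave-outs. Leaving out 1 library gave 0 to 1 in each. The replicate block changed no other count of members by over 1.5 times. Derl3 at 420 reads moved with the pseudocount, from −0.18 at 5 CPM to −1.14 at 0.1 CPM in activated cells. At 29.3 M reads or more per library, Derl3 and Ern1 had the fewest reads of the members, 420 and 5363 over all libraries. Counting error weighs most on such genes, but it was not separated from the spread between libraries. Intervals with a median half-width of 0.30 on the log2 scale limit comparisons among antigen-exposed groups.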
